A study of Mus musculus with 4 samples.

Results

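Cell cycle and DNA replication genes, 39 of the 35580 genes measured, were followed in mouse subcutaneous fat cells labelled Mmp3-positive or Mmp3-negative. The members were taken by symbol from a list of S-phase genes, mitotic genes and cyclins that was drawn up with earlier results of these data known, and all 39 were found. They fell into 13 S-phase genes, 21 mitotic genes, 2 E-type cyclins and 3 D-type cyclins. Both groups came from wild-type C57BL/6 mice and are stromal vascular cells, a mixture of fibroblast-like, vascular and immune cells left once adipocytes are removed from digested fat. Their labels differ in being positive or negative for Mmp3 by the reagent VB1-19770-PF. Mmp3 encodes the secreted matrix protease stromelysin-1. There were 2 libraries per group, numbered 1 and 2 in the labels as Set1 and Set2. Each set held an Mmp3-negative and an Mmp3-positive library, and the main fit did not pair the libraries by set. The age of the mice, how the cells were separated beyond the reagent code, and whether the 2 libraries of a group came from separate animals are not stated. The p-values therefore measure the spread between these libraries, which may be technical.

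A cell that leaves quiescence first makes D-type cyclins, which activate Cdk4 and Cdk6 and release E2F transcription factors from the retinoblastoma proteins. E2F then switches on the E-type cyclins and the S-phase genes, which load and run the replication machinery and supply nucleotides. In quiescent cells the DREAM complex represses cell cycle genes, and it comes apart as cells enter the cycle. Its MuvB core then joins B-MYB and FOXM1, which activate the chromosome condensation, spindle and cytokinesis genes before mitosis. Adipose stromal cells are largely quiescent in lean adult fat.

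Motifs known for S-phase and for mitotic promoters were searched in the members, and 5 promoters are printed to show them. RefSeq start sites on GRCm38.p6 were matched for 30 of the 39 members, with 33 promoter windows reaching from 250 bases before to 50 bases after the start. An E2F motif (TTTCCCGC, TTTGGCGC, TTTCGCGC or TTTGCCGC on either strand) lay in 6 of 12 S-phase windows and in 1 of 18 mitotic windows (5.56%), against 2.26% of all 32851 windows of that length. The cell cycle homology region (CHR, TTTGAA on either strand), which MuvB binds, lay in 13 of 18 mitotic windows (72.2%) and in 1 of 12 S-phase windows (8.33%), against 17.9% of all windows. A CCAAT box (CCAAT on either strand), bound by NF-Y, lay in 16 of 18 mitotic windows (88.9%) and 9 of 12 S-phase windows (75.0%), against 37.4% of all. A match says only that these letters are present. The 250 bases before the start follow, 5′ to 3′ on the gene's strand, with E2F, CHR and CCAAT matches in capitals. Mcm6 and Mcm5 are helicase genes with E2F matches, where neighbouring E2F matches overlap each other, Mki67 and Top2a have the highest mean CPM of the mitotic members, and Aurka is a mitotic kinase gene with 0 counts in both Mmp3-negative libraries. No E2F, CHR or CCAAT match overlapped a match of another kind in them.
Mcm6, chr1:128359706-128359955, minus strand: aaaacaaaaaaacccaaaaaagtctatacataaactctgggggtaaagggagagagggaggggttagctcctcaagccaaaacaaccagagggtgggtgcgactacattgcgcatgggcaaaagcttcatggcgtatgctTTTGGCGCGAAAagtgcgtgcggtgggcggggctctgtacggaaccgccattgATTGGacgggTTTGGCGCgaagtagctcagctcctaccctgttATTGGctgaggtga
Mcm5, chr8:75109259-75109508, plus strand: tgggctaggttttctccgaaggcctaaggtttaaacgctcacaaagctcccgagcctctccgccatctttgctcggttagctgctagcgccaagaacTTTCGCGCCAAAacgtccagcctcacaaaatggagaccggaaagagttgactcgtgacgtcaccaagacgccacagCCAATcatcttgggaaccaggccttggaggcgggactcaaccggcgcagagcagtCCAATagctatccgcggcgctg
Mki67, chr7:135716380-135716629, minus strand: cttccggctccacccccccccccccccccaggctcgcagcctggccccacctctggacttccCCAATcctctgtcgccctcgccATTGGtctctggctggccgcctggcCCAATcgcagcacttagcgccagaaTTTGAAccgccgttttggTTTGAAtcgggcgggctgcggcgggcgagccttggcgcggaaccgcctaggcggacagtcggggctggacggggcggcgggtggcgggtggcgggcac
Top2a, chr11:99024190-99024439, minus strand: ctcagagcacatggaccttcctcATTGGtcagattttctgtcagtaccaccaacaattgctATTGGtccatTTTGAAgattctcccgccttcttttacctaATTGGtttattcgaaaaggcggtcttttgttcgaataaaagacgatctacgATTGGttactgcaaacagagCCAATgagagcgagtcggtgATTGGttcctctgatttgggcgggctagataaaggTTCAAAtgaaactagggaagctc
Aurka, chr2:172370571-172370820, minus strand: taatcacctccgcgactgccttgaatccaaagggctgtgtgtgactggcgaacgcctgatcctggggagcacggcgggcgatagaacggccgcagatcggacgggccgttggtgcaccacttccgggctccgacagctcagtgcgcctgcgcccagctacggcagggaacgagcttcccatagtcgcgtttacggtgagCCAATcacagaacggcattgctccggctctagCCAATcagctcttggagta

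Each library held between 17693755 and 20286221 estimated counts, and 10 or more counts were found for 12697 to 14382 genes, with both higher values in Mmp3-positive libraries. Mmp3 stood at 106 and 131 CPM in Mmp3-negative and 4161 and 3409 CPM in Mmp3-positive libraries, in the direction of the labels. CPM here are counts scaled to library size with TMM factors, and fold changes are Mmp3-positive over Mmp3-negative on the log2 scale. Of the 39 members, 37 passed the filter on low counts, and the exceptions were Cdk1 and Bub1. No tested member passed the test in either direction (0 of 37, lowest edgeR quasi-likelihood adjusted p = 0.480), where 0.00705% of all 14185 genes tested were called higher and 0.0141% lower. At an unadjusted p of 0.05 or less, 6 members were higher and 0 lower, against 5.62% and 3.25% of all genes. Of those 6, 5 had 0 counts in both Mmp3-negative libraries and could pass the filter only through the Mmp3-positive ones, so their number is not read as a result. With no count filter 3 of 39 members reached that level in either direction, against 940 of 18232 genes. The DESeq2 Wald test on the same genes called 5 members higher (13.5%) and 0 lower, against 5.46% and 4.18% of all genes, and 1 member when it was run on all genes with a count. The 5 are all genes with at most 1 count in both Mmp3-negative libraries, described below. They too could pass the filter only through the Mmp3-positive ones, so their number is not read as a result either.

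**Figure D1:**
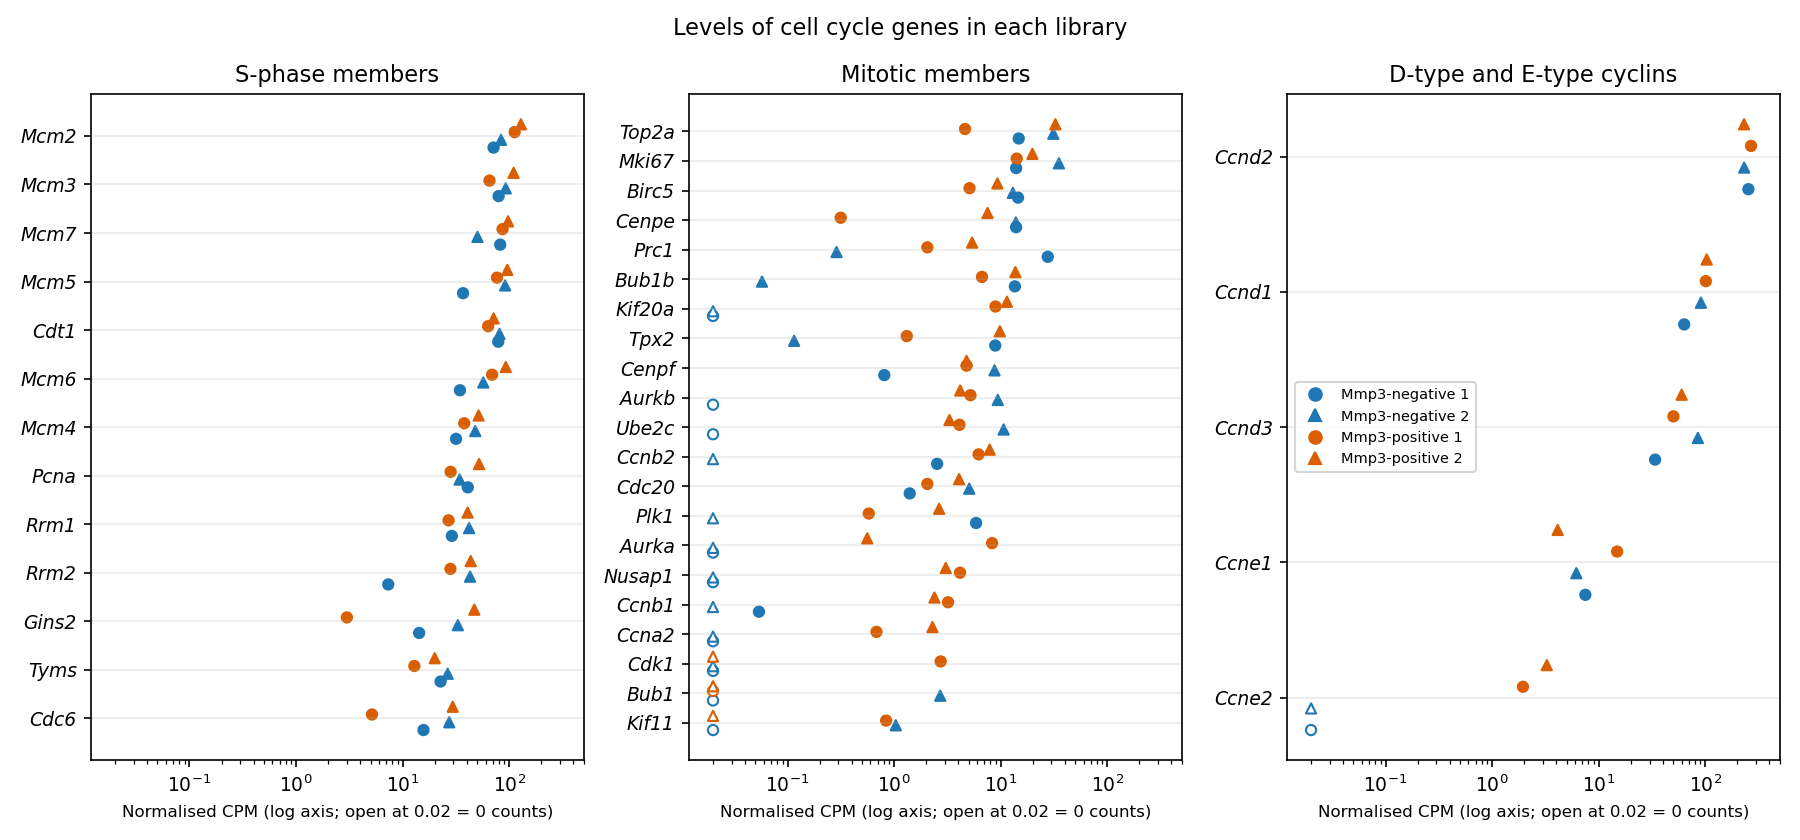
Normalised CPM (horizontal log axis) of every member in each of the 4 libraries, in 3 panels by class; open symbols set at 0.02 stand for 0 counts. S-phase genes and D-type cyclins had counts in all 4 libraries, whereas 9 and 8 mitotic members were at 0 counts in Mmp3-negative replicates 1 and 2.

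S-phase genes had counts in all 4 libraries and overlapping summed levels. All 13 had 10 or more counts in every library, 0 passed the edgeR test in either direction, and the median of their log2 fold changes was 0.10, against 0.02 over all genes tested. That median was -0.34 without Mmp3-positive replicate 2 and -0.11 without Mmp3-negative replicate 1. Their summed level was 545 and 711 CPM in Mmp3-negative and 616 and 882 CPM in Mmp3-positive libraries. The libraries of the groups did not overlap for 3 S-phase members on the higher side (Mcm2, Mcm6 and Mcm7) and 2 on the lower side (Cdt1 and Tyms). Over all 37 tested members such non-overlap was found for 11 higher (29.7%) and 4 lower (10.8%), against 22.5% and 17.3% of all genes tested. Those 11 include the 6 members with at most 1 count in both Mmp3-negative libraries, described below. They could pass the filter only through the Mmp3-positive libraries, so the number on the higher side is not read as a result. In these bulk samples a change in the share of cycling cells and a change in RNA per cell cannot be told apart.

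Mcm2 to Mcm7 encode the 6 subunits of the replicative helicase, which is loaded at origins in G1 and unwinds DNA in S phase. Mcm2 (chr6:88883474-88898780 on GRCm38) stood at 71.4 and 83.8 CPM in Mmp3-negative and 113 and 129 CPM in Mmp3-positive libraries, a log2 fold change of 0.64 with a standard error of 0.24 (edgeR adjusted p = 0.496). Both Mmp3-positive libraries were above both Mmp3-negative ones. Mcm6 (chr1:128331590-128359664), whose promoter holds 3 of the E2F matches shown above, stood at 34.5 and 57.1 CPM against 69.1 and 93.0 CPM, a log2 fold change of 0.82 with a standard error of 0.37 (edgeR adjusted p = 0.619). Its groups did not overlap either. Mcm7 stood at 82.4 and 50.4 CPM against 86.6 and 97.7 CPM (log2 fold change 0.47, standard error 0.32).

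The other 3 helicase genes overlapped between groups. Mcm5, with 2 overlapping E2F matches, stood at 36.9 and 91.6 CPM in Mmp3-negative and 76.9 and 96.0 CPM in Mmp3-positive libraries (log2 fold change 0.43, standard error 0.46). Mcm3 stood at 79.6 and 92.8 CPM against 65.4 and 110.0 CPM, and its log2 fold change of 0.02 (standard error 0.33) was smaller than its error. Mcm4 had 0.17 with a standard error of 0.41. All 6 helicase genes had a fold change above 0, with a median of 0.45, but Mcm3 was at -0.02 with DESeq2 size factors, and with an offset for transcript length Mcm2, Mcm3 and Mcm5 were at -0.04, -0.23 and -0.14.

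The remaining S-phase members act in origin licensing, at the fork and in nucleotide supply. Cdt1, which brings the helicase to origins, stood at 78.9 and 81.1 CPM in Mmp3-negative and 63.5 and 71.4 CPM in Mmp3-positive ones (log2 fold change -0.25, standard error 0.25). Tyms, thymidylate synthase, stood at 22.7 and 26.5 CPM against 12.9 and 20.01 CPM (-0.58, standard error 0.64). In both the Mmp3-positive libraries were the lower ones, by no more than the standard error. Cdc6, the other licensing factor, and Gins2, a subunit of the active helicase, were lowest in Mmp3-positive replicate 1, with 98 and 57 counts, and highest in Mmp3-positive replicate 2, with 580 and 925 counts. Pcna, the sliding clamp, and Rrm1 and Rrm2, the ribonucleotide reductase subunits, had log2 fold changes of 0.10, -0.07 and 0.51, with standard errors of 0.45, 0.46 and 0.86. Rrm2 was at 7.34 CPM in Mmp3-negative replicate 1 and between 28.1 and 43.6 CPM elsewhere.

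**Figure D2:**
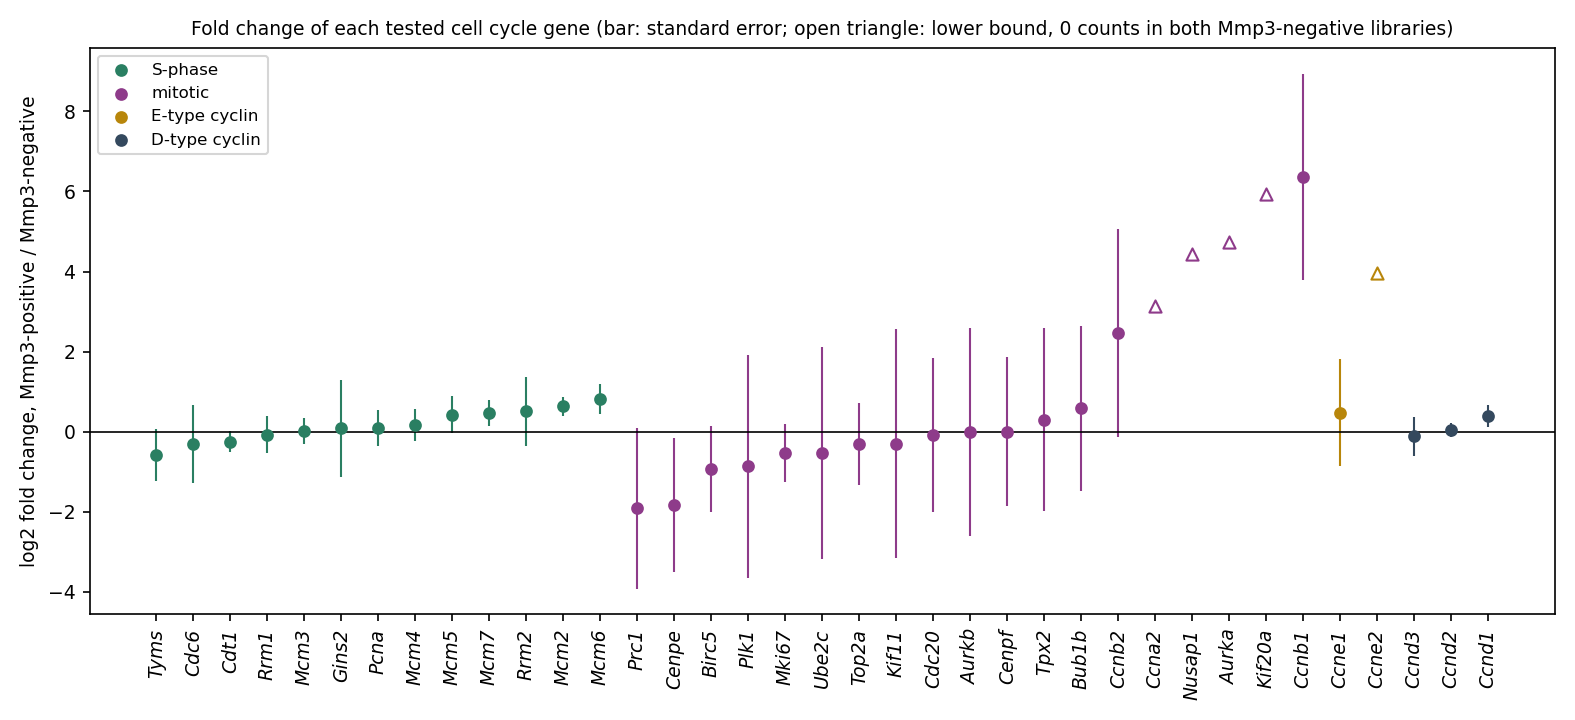
Log2 fold change of each of the 37 tested members (vertical axis), Mmp3-positive over Mmp3-negative, coloured by class, with bars of 1 standard error. Open triangles are lower bounds, for counting error only, for the 5 members at 0 counts in both Mmp3-negative libraries. S-phase genes and D-type cyclins lie between -0.58 and 0.82, and mitotic genes spread from -1.91 upward with wide bars.

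Mitotic genes were scarce and uneven, and more of them had counts in Mmp3-positive libraries. Of 21 members, 10 or more counts were found for 11 and 10 in Mmp3-negative libraries (52.4% and 47.6%) and for 19 and 18 in Mmp3-positive ones (90.5% and 85.7%). Of the 17076 genes with 10 or more counts in any library, 75.9% and 74.4% reached that level in Mmp3-negative and 84.2% and 80.3% in Mmp3-positive libraries. The summed level of the class did not follow the number detected, at 118 and 131 CPM in Mmp3-negative and 86.1 and 145 CPM in Mmp3-positive libraries. The median log2 fold change over the 19 tested mitotic members was -0.0019, 0 passed the edgeR test in either direction, and 9 were above 0. That median was 3.66 and 2.02 without Mmp3-negative replicate 1 or 2. In the Mmp3-negative library then left, 8 (replicate 2) or 9 (replicate 1) mitotic members were at 0 counts and had no measurable ratio. These medians are therefore not read as sizes of change.

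The 2 mitotic members with the highest mean CPM, a scale that is not corrected for transcript length, overlapped between the groups. Top2a (chr11:98992943-99024189), the topoisomerase that untangles replicated chromosomes, stood at 14.8 and 31.2 CPM in Mmp3-negative and 4.63 and 32.6 CPM in Mmp3-positive libraries (log2 fold change -0.30, standard error 1.03). Mki67, the Ki-67 protein that coats mitotic chromosomes and marks proliferating cells, stood at 14.0 and 35.2 CPM against 14.2 and 19.9 CPM (-0.53, standard error 0.73). For both genes the fold change turned positive with an offset for transcript length (0.70 for Top2a and 0.57 for Mki67).

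Birc5 and Cenpe were the 2 mitotic members whose Mmp3-positive libraries both lay below the Mmp3-negative ones. Birc5, the chromosomal passenger survivin, stood at 14.6 and 13.0 CPM in Mmp3-negative and 5.11 and 9.32 CPM in Mmp3-positive libraries (log2 fold change -0.94, standard error 1.07). Cenpe, a kinesin of the kinetochore, stood at 14.0 and 13.9 CPM against 0.316 and 7.54 CPM (-1.83, standard error 1.67). Mmp3-positive replicate 1 set most of the Cenpe difference, since the log2 fold change was -0.89 without it and -5.44 without replicate 2.

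Several other mitotic genes were uneven between the libraries of a group. Prc1, which bundles the central spindle, had 513 and 5 counts in Mmp3-negative and 39 and 106 in Mmp3-positive libraries. Bub1b, the checkpoint kinase BubR1, had 252 and 1 counts against 127 and 270. Tpx2, which targets Aurora A to the spindle, had 165 and 2 counts against 25 and 193. Cenpf, a protein of the kinetochore and nuclear matrix, had 15 and 152 counts against 91 and 94. Cdc20, an activator of the anaphase-promoting complex, had 26 and 88 counts against 39 and 80. Kif11, the kinesin that separates spindle poles, had 0 and 18 counts against 16 and 0. In each of these 6 genes the groups overlapped.

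For 3 mitotic members one Mmp3-negative library was at 0 counts and the other at 50 or more (14.3%), against 13.7% of the 17076 genes. These were Aurkb, the kinase of the chromosomal passenger complex (0 and 163 counts), Ube2c, the ubiquitin-conjugating enzyme of the anaphase-promoting complex (0 and 185), and Plk1, a kinase of mitotic entry (109 and 0). Their Mmp3-positive libraries had 99 and 82, 78 and 65, and 11 and 52 counts. Among Mmp3-positive libraries this held for 1 mitotic member, Cdk1 (4.76%), against 6.58% of the genes. Between replicates, the median absolute difference in log2(CPM + 1) over tested mitotic members was 1.27 between Mmp3-negative and 0.76 between Mmp3-positive libraries, against 0.73 and 0.46 over all genes tested.

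The 2 members that failed the filter had counts in 1 library each. Cdk1, the kinase that drives mitosis, had 52 counts in Mmp3-positive replicate 1 and 0 in the other 3 libraries. Bub1, a kinase of the spindle checkpoint, had 47 counts in Mmp3-negative replicate 2 and 0 elsewhere.

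A set of 6 members had at most 1 count in both Mmp3-negative libraries and 10 or more in both Mmp3-positive ones, and 0 members had the reverse. These bounds were chosen after the values were seen, so they are a description. The share of 15.4% of the 39 members compares with 3.05% of the 17076 genes, and 1.01% of genes had the reverse. Kif20a, the kinesin of cytokinesis, had 0 counts in both Mmp3-negative libraries and 170 and 225 in Mmp3-positive ones, at least 60.9-fold higher against a floor of 3 counts per library. Nusap1, a spindle microtubule protein (chr2:119618298-119651244), had 0 and 0 against 79 and 60 counts, at least 21.5-fold higher. In both, the Mmp3-positive libraries were close to each other.

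The other members of that set were less even. Ccnb1 (chr13:100778650-100786570), the B-type cyclin that activates Cdk1, had 1 and 0 counts in Mmp3-negative and 61 and 47 in Mmp3-positive libraries, a ratio of 100.3 with an exact 95% interval from 17.6 to 3997 for counting error only. Aurka (chr2:172356190-172370535), the Aurora A kinase of spindle poles, had 0 and 0 against 158 and 11 counts, at least 26.5-fold higher by the mean. That mean rests on Mmp3-positive replicate 1, at 8.32 CPM against 0.560 CPM in replicate 2. Ccna2, the A-type cyclin of S phase and G2, had 0 and 0 against 13 and 45 counts, at least 8.89-fold higher by the mean. The remaining one is the E-type cyclin Ccne2. Among these 6, edgeR adjusted p ran from 0.480 to 0.564. DESeq2 on the same genes called Kif20a (adjusted p = 8.52e-05), Nusap1 (0.0169), Aurka (0.0290), Ccne2 (0.0327) and Ccnb1 (0.0458), and on all genes with a count it called Kif20a alone (0.000125). The calls on the same genes are a description, since these members could pass the filter only through Mmp3-positive libraries.

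Which transcripts held these counts differed between genes. When only transcripts annotated as protein-coding were summed, 2 of the 39 members (5.13%) kept the pattern, Kif20a and Nusap1, against 3.96% of 14546 genes, and 1.11% of genes had the reverse. Every Kif20a transcript measured is annotated as coding, so its outcome was fixed in advance. For Ccna2, 0% of the counts were on protein-coding transcripts in either Mmp3-positive library, with 13 counts on a retained-intron transcript in replicate 1 and 45 on a nonsense-mediated decay transcript in replicate 2. For Ccnb1, 61 counts in replicate 1 were on retained-intron transcripts, and 46 of 47 in replicate 2 were on a coding one. For Aurka the 11 counts of replicate 2 were on a retained-intron transcript. Ccnb2, the other B-type cyclin, had 47 and 0 counts in Mmp3-negative and 118 and 155 in Mmp3-positive libraries. Its only transcript measured is a coding one, so its counts could not fall elsewhere.

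**Figure D3:**
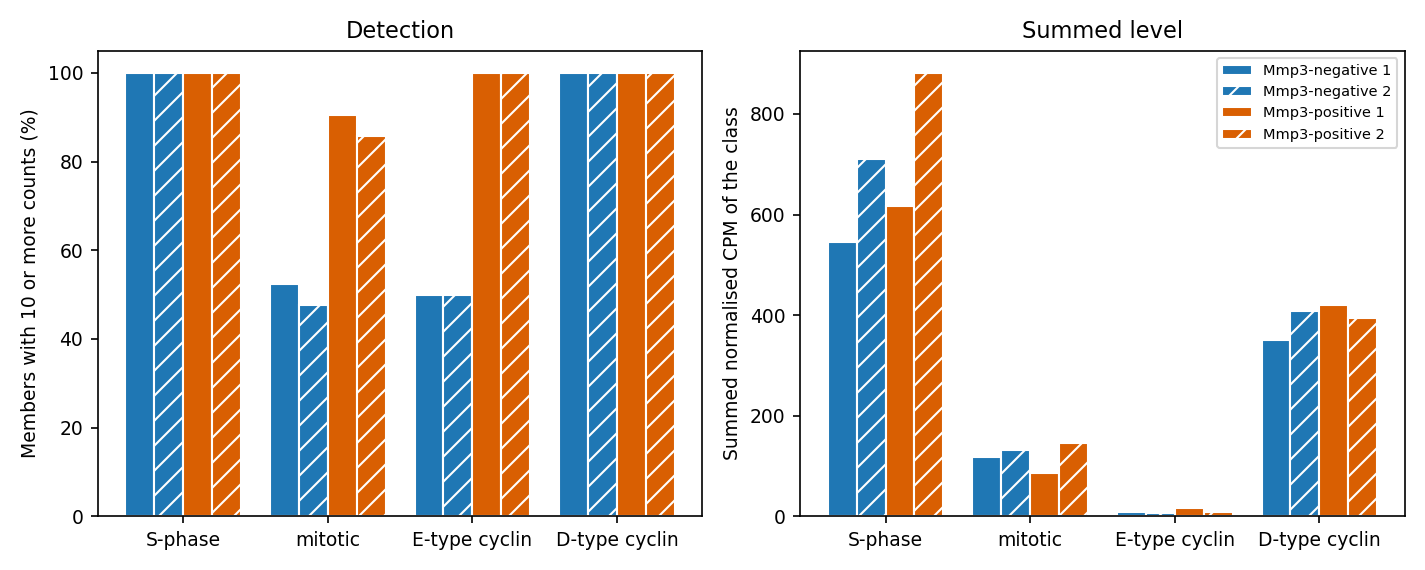
Left, share of each class with 10 or more counts; right, summed normalised CPM of the class; 1 bar per library, the second library of each group hatched, both axes from 0. Mitotic detection was 52.4% and 47.6% in Mmp3-negative and 90.5% and 85.7% in Mmp3-positive libraries, while the summed mitotic level overlapped between groups.

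E-type cyclins activate Cdk2 at the start of S phase. Ccne1 (chr7:38097984-38107534) stood at 7.50 and 6.17 CPM in Mmp3-negative and 14.9 and 4.12 CPM in Mmp3-positive libraries, so the Mmp3-positive libraries lay on either side of the Mmp3-negative ones (log2 fold change 0.48 with standard error 1.33 and edgeR adjusted p = 0.999). Ccne2 (chr4:11191351-11204779) had 0 counts in both Mmp3-negative libraries and 37 and 64 in Mmp3-positive ones (edgeR adjusted p = 0.480). By the mean it was at least 15.5-fold higher, a bound for counting error only. All Ccne2 counts were on processed transcripts that are not annotated as coding, 1 in replicate 1 and 2 others in replicate 2.

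Summed over all transcripts, D-type cyclins were abundant in both groups and close between them. Ccnd2 (chr6:127125162-127152193) stood at 254 and 232 CPM in Mmp3-negative and 269 and 231 CPM in Mmp3-positive libraries, a log2 fold change of 0.04 with a standard error of 0.18 (edgeR adjusted p = 0.999), and it was at -0.15 with the length offset. Ccnd1 (chr7:144929931-144939925) stood at 63.4 and 91.0 CPM against 101 and 103 CPM, and its Mmp3-positive libraries were both higher (log2 fold change 0.40 with standard error 0.27 and edgeR adjusted p = 0.879). On its coding transcript alone, Ccnd1 had 894 and 977 estimated counts in Mmp3-negative and 1676 and 1902 in Mmp3-positive libraries. Ccnd3 (chr17:47505051-47599691) stood at 33.8 and 85.3 CPM against 50.3 and 60.0 CPM, with both Mmp3-positive libraries between the Mmp3-negative ones (log2 fold change -0.11, standard error 0.49). The 3 genes together summed to 351 and 408 CPM in Mmp3-negative and 420 and 394 CPM in Mmp3-positive libraries.

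Levels of different genes are compared per transcript length, in the authors' TPM summed per gene. They are read within a library, since matched genes summed to 830566 TPM in Mmp3-negative replicate 1 and 917253 to 965243 in the other libraries. Ccnd2 was the highest D-type cyclin in all 4 libraries, at 143 and 305 TPM in Mmp3-negative and 241 and 209 TPM in Mmp3-positive libraries. Ccnd1 (17.3, 64.8, 51.3 and 55.4 TPM in the same order) and Ccnd3 (14.3, 141, 66.4 and 48.5 TPM) changed places between libraries. Summed over the class, mitotic genes stood at 48.8 and 70.2 TPM in Mmp3-negative and 60.4 and 89.8 TPM in Mmp3-positive libraries, below S-phase genes at 220 and 653 TPM and 408 and 549 TPM.

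TPM values of Mcm2 differed far more than its counts between the Mmp3-negative libraries. It had 1323 and 1454 counts there but 16.7 and 166 TPM. In replicate 1 all of its counts were on the full-length coding transcript, and in replicate 2 this was 73.9%, with 202 counts on a 273-base transcript. In the Mmp3-positive libraries 80.4% and 90.4% were on coding transcripts.

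The share of counts on coding transcripts also differed for other members with like counts. Cdt1 had 0% and 22.2% on coding transcripts in Mmp3-negative and 65.8% and 81.4% in Mmp3-positive libraries, the rest being on retained-intron transcripts. With coding transcripts alone its log2 fold change was 2.45, against -0.25 over all transcripts. Ccnd1 had 76.0% and 61.8% against 87.1% and 93.9%, and Ccnd3 63.8% and 68.5% against 83.1% and 79.8%, and in these 3 genes the share was higher in both Mmp3-positive libraries. Over the 20 members with 50 or more counts in every library, a tally made after the values were seen, this order held for 6 (also Mcm3, Ccnd2 and Ccne1), against 13.5% of 8909 protein-coding genes. The reverse held for 2 members, Cdc6 (100% and 100% against 76.8% and 88.5%) and Top2a (100% and 94.5% against 68.7% and 79.2%), against 10.8% of genes. Genes with coding transcripts only, such as Birc5, Mcm4 and Mki67, can take neither order. They were kept among the members and among all genes, where their number was not counted, so the shares are not a like comparison. Gins2 and Tyms showed neither order: Gins2 had 0% and 86.2% against 100% and 0%, and Tyms 100% and 2.13% against 91.9% and 81.2%. Splits of reads between transcripts of one gene are estimates.

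**Figure D4:**
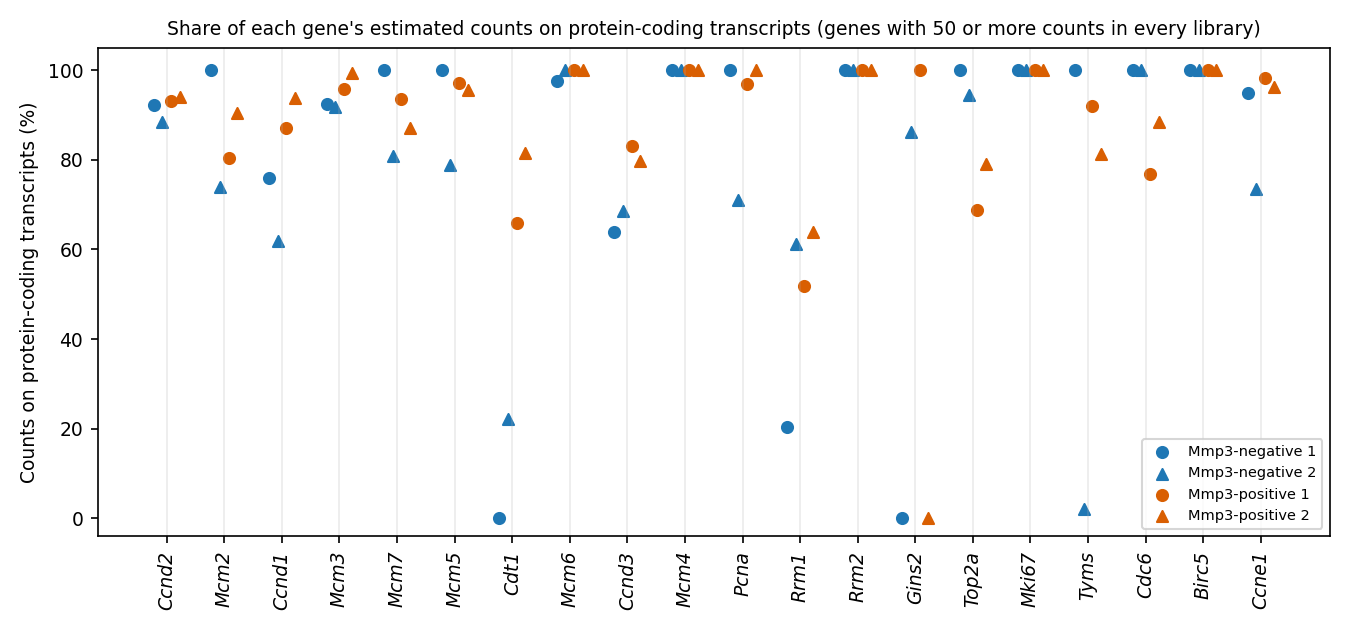
Share of estimated counts on protein-coding transcripts (vertical axis, percent) for each member with 50 or more counts in every library, with 1 point per library. The share was higher in both Mmp3-positive libraries for Cdt1, Ccnd1, Ccnd2, Ccnd3, Ccne1 and Mcm3 and lower in both for Cdc6 and Top2a, and Gins2 and Tyms ranged from 2.13% or less to 100% among libraries.

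Other genes of the pathway were taken from 6 lists with 131 genes, of which 114 were tested. In each of the 6 lists 0 genes passed the edgeR test in either direction, and over all lists 8 genes (7.02%) were higher and 2 lower at an unadjusted p of 0.05 or less, against 5.62% and 3.25% of all genes. DESeq2 called 8 higher and 4 lower, against 5.46% and 4.18% of all genes, so these shares were near the background. Among the 8 higher genes of either test, Rfc4, Rpa3, Cdkn3 and Kif14 had 0 counts in both Mmp3-negative libraries and Cdkn2b had 2 and 0. These could pass the filter only through the Mmp3-positive libraries, so the number higher is not read as a result. Libraries not overlapping, counted below for each list, were found for 22.5% of all genes on the higher and 17.3% on the lower side. Genes of the replication fork and nucleotide supply had a median of 0.47 (log2 fold change) over 29 tested genes, and for 13 of them (44.8%) both Mmp3-positive libraries lay above both Mmp3-negative ones, against 22.5% of all genes, with 1 the other way (3.45%, against 17.3%). The 13 include Rfc4 and Rpa3, which could only fall on the higher side. The highest of the whole list in mean CPM were Dnmt1, the maintenance DNA methyltransferase, at 266 and 385 CPM in Mmp3-negative and 327 and 411 CPM in Mmp3-positive libraries, and Pold1, a DNA polymerase subunit, at 103 and 150.2 CPM against 133 and 187 CPM. Both overlapped between groups.

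Origin licensing and firing genes had a median of 0.39 over 15 genes, with 7 not overlapping on the higher (46.7%) and 2 on the lower side (13.3%), against 22.5% and 17.3% of all genes. The 7 include Gins3 (0 and 8 against 51 and 37 counts), which could pass the filter only through the Mmp3-positive libraries. Topbp1, needed to fire origins, had a log2 fold change of 0.24 and Cdc45, a helicase subunit, -0.31. Genes of G1 and the restriction point had a median of 0.27 over 20 genes, with 4 and 3 not overlapping. Myc, the growth factor-responsive transcription factor, had 0.30, and Cdk4, the partner of the D-type cyclins, 0.04 with 131 and 141 CPM in Mmp3-negative and 144 and 137 CPM in Mmp3-positive libraries. CDK inhibitors had a median of -0.13 over 6 genes, with 1 not overlapping in each direction. Of the 2 with the highest mean CPM, Cdkn1a (p21) had 0.28, while Cdkn1b (p27) stood at 68.9 and 27.2 CPM against 13.0 and 11.8 CPM, a log2 fold change of -1.95 with a standard error of 0.61 (edgeR adjusted p = 0.480, DESeq2 adjusted p = 0.00750). In the other direction, Cdkn2b (p15), named after its values were seen, had 2 and 0 counts in Mmp3-negative and 216 and 254 in Mmp3-positive libraries (edgeR adjusted p = 0.480, DESeq2 adjusted p = 7.54e-05). Cdkn2b could pass the count filter only through the Mmp3-positive libraries, so its adjusted p is not read as a result. Among pathway genes with counts in every library, DESeq2 also called Rpa1, Clspn and Tfdp1 higher and E2f2, Orc4 and Tk1 lower. Their DESeq2 adjusted p ran from 7.47e-06 to 0.0377, and their edgeR adjusted p from 0.480 to 0.698. Rpa1 stood at 50.3 and 48.1 CPM in Mmp3-negative and 114 and 106 CPM in Mmp3-positive libraries. Tk1 stood at 41.9 and 60.7 CPM against 20.1 and 27.6 CPM.

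The other mitotic lists were nearer to 0. Mitotic kinases, kinesins and anaphase genes had a median of 0.07 over 29 genes, with 9 not overlapping on the higher (31.0%) and 4 on the lower side (13.8%), against 22.5% and 17.3% of all genes. The 9 include Cdkn3 and Kif14, which could pass the filter only through the Mmp3-positive libraries. In that list Fzr1, an activator of the anaphase-promoting complex, had a log2 fold change of -0.18 and Pkmyt1, an inhibitory Cdk1 kinase, 0.07. Kinetochore and condensin genes had a median of 0.01 over 15 genes, with 0 and 1 not overlapping. In it the condensin subunits Ncapd2 and Ncapd3 had -0.26 and -0.55.

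Markers of vascular, myeloid, erythroid and Schwann cells were lower in summed level in both Mmp3-positive libraries, and stromal and adipocyte sums overlapped between the groups. Non-overlap of single markers is set against 22.5% of all genes on the higher and 17.3% on the lower side. All 12 stromal fibroblast markers had 10 or more counts in every library, and their summed level was 21047 to 30330 CPM in Mmp3-negative and 29141 to 36870 CPM in Mmp3-positive libraries, with 8 of 12 not overlapping on the higher side. Pericyte and smooth muscle markers summed to 664 to 746 CPM in Mmp3-negative and 96.0 to 102 CPM in Mmp3-positive libraries, and 8 of 10 did not overlap on the lower side. Macrophage markers summed to 145 to 277 CPM against 34.1 to 37.4 CPM (6 of 9 tested lower without overlap, Adgre1 at 0 in both Mmp3-positive and Mrc1 at 0 in both Mmp3-negative libraries). Endothelial markers summed to 176 to 286 CPM against 114 CPM in both Mmp3-positive libraries (4 of 8, Cldn5 at 0 in both Mmp3-positive and Emcn at 0 in both Mmp3-negative libraries). Dendritic markers summed to 90.4 to 178 CPM against 14.8 to 23.9 CPM (4 of 6, H2-Eb1 at 0 in both Mmp3-positive libraries and Flt3 at 0 in all 4). T and NK cell markers summed to 43.5 and 5.88 CPM in Mmp3-negative and 9.58 and 7.84 CPM in Mmp3-positive libraries, with Cd3g and Nkg7 at 0 in all 4 and Cd3d at 146, 18, 104 and 41 counts. B cell markers summed to 48.7 and 26.2 CPM against 26.4 and 21.2 CPM, most of it Pax5 (902 and 452 against 501 and 383 counts), with Cd79a and Cd79b at 0 in all 4. Adipocyte markers, with Cidec and Lep at 0 in all 4 libraries, summed to 14.1 to 30.6 CPM against 24.8 to 28.3 CPM. Schwann cell markers summed to 107 and 75.0 CPM against 38.8 and 62.2 CPM (1 of 5 tested lower without overlap). Erythroid markers summed to 21.4 and 14.9 CPM against 5.47 and 9.42 CPM (of 4 tested, 2 lower and 1 higher without overlap). In each marker list 0 genes passed the edgeR test. Over 60 tested markers 4 were higher and 12 lower at an unadjusted p of 0.05 or less, against 5.62% and 3.25% of all genes. DESeq2 called 4 higher and 14 lower, against 5.46% and 4.18% of all genes. The part of these cells in the levels of cell cycle genes was not tested.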

How the data were processed

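RNA sequencing compared Mmp3-positive with Mmp3-negative cells, with 2 libraries per group. Per the labels' protocols, the RNeasy FFPE kit, made for fixed tissue, and strand-specific libraries after rRNA depletion were used. Per the submitters' processing notes, kallisto 0.45.0 and GRCm38 were used. The deposited tables give estimated counts and TPM values per transcript, per the file headers, made by the authors. For the transcript set, strand setting and trimming, nothing is stated in the labels.

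Of 115270 transcripts, 113580 matched GENCODE M21 by identifier without version. The 1690 unmatched ones, which were left out, held 0.729% to 2.08% of the counts. The expected counts of a gene's transcripts were added up, then rounded to whole numbers. kallisto shares reads among similar transcripts, so splits between transcripts of a gene are uncertain, as are overlapping genes.

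Genes were kept by filterByExpr (minimum count 10), scaled by TMM and tested with edgeR 4.0.16 quasi-likelihood (R 4.3.3), two-sided, with Benjamini-Hochberg adjustment over all 14185 genes at 0.05. The F statistic gave the standard error, as the absolute log2 fold change divided by its square root. The fit left 2 residual degrees of freedom. The test was tried on simulated counts. The members and lists were chosen with earlier results of these data known. Values by library are given for the cyclins, for the 6 S-phase and 6 mitotic members with the highest mean CPM (not scaled to length) and for members at 0 in a group. Of each pathway list the 2 genes with the highest mean CPM are named. Cdc6, Gins2, Rrm2, Tyms, Tpx2, Ccnb2, Aurkb, Ube2c, Plk1, Ccnb1, Cenpf, Cdc20, Kif11, Cdkn2b and the markers named were chosen after their values were seen. So were the pathway genes named for their DESeq2 calls or their low counts. Alternatives were DESeq2 1.42.0 size factors and Wald test, no count filter, a replicate block, each library left out, a transcript length offset, protein-coding transcripts only, and limma 3.58.1 on log2(TPM + 1).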

Additional observations from a re-analysis of the deposited data

How the results depend on the processing

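DESeq2 on all genes with a count, and the present-or-absent bounds with their alternatives, were chosen after seeing the data. Members called numbered 0 higher and 0 lower in all fits but DESeq2 (5 higher; 1 on all genes with a count). The cause of the differences below was not tested.

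Over all genes, 1 was higher and 2 lower. With no count filter 4 and 23 were, with the DESeq2 Wald test 775 and 593, and with it on all genes with a count 447 and 532. The length offset left 0 lower, protein-coding transcripts 0 lower, and limma on log2(TPM + 1) 0 and 0 (1064 at an unadjusted p of 0.05 or less). With a replicate block from the labels' set numbers 4 were lower, and the mitotic median was 1.77. Deviations from the group means correlated at 0.024 across genes between libraries of the same number (2 pairs). With 2 pairs this cannot exclude pairing by set, and the main fit treated the libraries as unpaired. Without 1 library in turn, 1 to 237 were higher and 1 to 116 lower; the counts were 234 and 98 without Mmp3-negative replicate 1, 237 and 116 without Mmp3-negative replicate 2, and 2 or fewer otherwise.

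Protein-coding transcripts alone left 2 of the 6 members with at most 1 count in Mmp3-negative and 10 or more in Mmp3-positive libraries. Without 1 library in turn there were 6 to 9, a number that could not fall below 6, since leaving out a library only relaxes the bounds.

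The S-phase median log2 fold change (0.10) was 0.43 with limma, and -0.34 to 0.47 without 1 library in turn, lowest without Mmp3-positive replicate 2. The mitotic median (-0.0019) was 0.70 with the length offset, -0.46 with protein-coding transcripts, 0.59 with limma, and -0.21 to 3.66 without 1 library, highest without Mmp3-negative replicate 1. That highest value is not read as a size of change, since 8 mitotic members were at 0 counts in the Mmp3-negative library left. The E-type median (4.54, or 2.22 with Ccne2 at its bound) was 4.19 with either DESeq2 test, 4.18 with the length offset, 0.63 with protein-coding transcripts, where Ccne1 alone was tested, 1.80 with limma, and 4.09 to 4.64 without 1 library. The D-type median (0.04) was 0.31 with limma and 0.010 to 0.69 without 1 library.

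Members that turned direction had not passed. Ccnd2 was -0.0036 with DESeq2 size factors, -0.0037 and -0.0033 with the DESeq2 tests and -0.15 with the length offset. Ccnd3 was 0.031 with the replicate block, 0.13 with protein-coding transcripts and 0.31 with limma. Mcm3 was -0.020 with DESeq2 size factors, -0.019 with either DESeq2 test and the block, -0.23 with the length offset and -0.011 with limma. With the length offset, Ccne1 was -0.27, Mcm2 -0.039, Mcm5 -0.14, Top2a 0.70 and Mki67 0.57. With limma, Top2a was 0.49 and Mki67 0.45. Cdt1 was 2.45 with protein-coding transcripts, and Prc1 0.14 with the block.

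Without 1 library in turn, ranges were -0.73 to 1.12 for Ccne1, -0.070 to 0.14 for Ccnd2, -0.63 to 0.71 for Ccnd3, -0.40 to 0.35 for Mcm3, -0.089 to 1.23 for Mcm5, -2.32 to 0.50 for Top2a, -1.06 to 0.29 for Mki67, -2.89 to 3.66 for Prc1 and -0.41 to 7.31 for Bub1b. The median of all genes, 0.02, stood at 0.29 with limma and 0.12 with the block. The standard errors of tested mitotic members were 0.73 or more, which at this depth and number of libraries limits what could be detected.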
